A study of Mus musculus with 18 samples.

Results

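Solute carriers and ATP-binding cassette (ABC) proteins were followed in mouse ovaries as every probe set whose annotation gave 1 gene symbol beginning with Slc and a digit, or with Abc, a letter from a to g and a digit. These were 162 of 13027 probe sets on 2 chip types, 126 on chip A and 36 on chip B, and they stood for 128 of the 6137 genes named there, 111 with an Slc and 17 with an Abc symbol. The choice used names only and no measured value. A further 4 annotation entries that share a probe set with another gene were left out. A few members are not carriers themselves, among them Slc9a3r1, a scaffold protein that binds a sodium-proton exchanger, Slc4a1ap, an adaptor protein, and Abce1 and Abcf1, soluble proteins of the ribosome.

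Solute carriers move sugars, amino acids, ions, metals, vitamins and nucleotides across the plasma membrane or organelle membranes, mostly down a gradient or coupled to sodium or protons. ABC transporters use ATP to export lipids, drugs and conjugates, and some act within mitochondria or peroxisomes. In the ovary, carriers feed the growing follicle and oocyte and supply mitochondria with substrate, and ABC proteins export sterols from the cells that make steroids from cholesterol.

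The mice hypersecrete luteinizing hormone (LH) from a transgene that the labels name LHCTP, and RNA of their ovaries was compared with RNA of wild-type ovaries. The conditions were LHCTP transgenic and wild-type CF-1 mice of 2 and of 5 months, LHCTP transgenic and wild-type CF-1xC57BL/6 F1 hybrid mice of 2 and of 5 months, and LHCTP transgenic CF-1 mice of 5 months given hCG (human chorionic gonadotropin), which binds the receptor of LH. The labels call the transgenic ovaries cystic at 2 months, the CF-1 transgenic ovary of 5 months a granulosa cell tumour, and the hybrid transgenic ovary of 5 months and the hCG-treated ovary luteomas, and they name no promoter for the transgene and no pooling of animals. Each of the 9 conditions had 1 array of each chip type, 18 in all, so the spread behind a p-value is that between conditions and not between animals, and in whole ovaries fewer cells of a type and less RNA per cell cannot be told apart.

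Intensities were scaled to a common level within each chip type and are given in units of scaled intensity, which can fall below 0. For log2 differences, values were raised to a floor of 184 units on chip A and 291 units on chip B, and a probe set was tested when it reached 2 floors, the detection limit, on at least 2 of the 9 arrays. After scaling, 54.5% to 57.9% of chip A and 28.0% to 29.6% of chip B probe sets stood at the limit, and the trimmed mean of an unscaled array was 907 to 1756 units for chip A, with 542 to 921 units for chip B. The pathology in the labels was set against marker genes: Inhba, a subunit of inhibin and activin, was brightest in the tumour, at 12028 units, with no other array over 5891 units, and Ptgfr, a receptor of luteal cells, read 217 units there and at least 7675 units elsewhere. Of 9 measured genes of granulosa cells and growing follicles, Inhba, Inhbb, Fst, Nr5a2, Esr2 and Hsd17b1 had their highest value in the tumour. Amh and Wt1 had their lowest value there, at 415 and 1219 units, and Inha, at 14779 units, lay between its extremes. The granulosa markers thus gave no single direction. The chip B array of the tumour carries a description with another age than its title and source, and the title and source were followed. The 9 conditions were also clustered on control probe sets of the opposite strand and cut into 2 groups, a number set in advance. The smaller group held 3 arrays of 5 months, namely the CF-1 tumour, the CF-1 wild type and the hybrid luteoma. The 2 groups are called control profiles below, and how distinct they are was not tested.

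Most of the family was measurable in the ovary. Of the 162 members, 103 were tested (86 of chip A, 17 of chip B), which is 63.6% of them, against 49.2% of all probe sets and 60.9% of those with 1 symbol. They stood for 85 genes, 74 Slc and 11 Abc, and 61 members were at the limit on all 9 arrays. Of the 59 members not tested, 56 never reached the limit and 3 reached it on 1 array, which were the chip B probe set of Abca1, 1 of Slc22a18 and that of Slc32a1. The 43 genes with no tested probe set included Abcb1a and Abcb11, a drug pump and the bile salt pump of the liver, the kidney salt carriers Slc12a1 and Slc12a3, the glucose carriers Slc2a2 of liver and islets and Slc2a4 of muscle and fat, and the cationic amino acid carrier Slc7a1. At this detection limit these were not measurable on the chips, and no level can be given for them.

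The tested members varied over the 9 conditions about as much as other probe sets, with a median highest-to-lowest ratio of 2.28, against 2.23 over all 6408 probe sets tested. The ratio was under 2 for 36 members (35.0%, against 38.1% of all) and over 4 for 17 members (16.5%, against 11.8% of all). The steadiest was Slc50a1, a sugar carrier, which stayed between 1429 and 1733 units. Slc35b1, a nucleotide carrier of the endoplasmic reticulum, stayed between 2836 and 3741 units, and Abcg1, which exports cholesterol to lipoproteins, between 842 and 1208 units. The widest were Abcb1b, with a ratio of at least 44.6, Slc38a5, with 701 to 14010 units, and Slc20a1, with a ratio of 8.97, and each of these had an extreme in the tumour. The tumour was the highest of the 9 arrays for 27 members (26.2%, against 21% of all) and the lowest for 22 (21.4%, against 18.1% of all). The hybrid cystic ovary was the highest for 2 members (1.94%, against 9.47% of all), and the hybrid wild type of 2 months for 17 (16.5%, against 9.05% of all). These shares are descriptions of single arrays and carry no test.

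The first comparison asked which carriers differ in LHCTP transgenic ovaries whatever the strain and age, over the 8 untreated arrays. No member passed limma's adjusted threshold of 0.05 for genotype, and 0% of all probe sets passed it. At an unadjusted p under 0.05, 8 members were higher (7.77% of those tested, against 4.68% of all) and 9 were lower (8.74%, against 5.34% of all). The median log2 difference over the 103 members was 0.11, against 0.00013 over all probe sets, with 61 members above 0 (50.03% of all probe sets were) and 42 below. This median was 0.04 without the CF-1 cystic ovary, 0.05 without its wild type, 0.06 without the tumour, 0.03 without its wild type, 0.07 without the hybrid wild type of 2 months and 0 with no filter on dim probe sets. In all 4 pairs of transgenic and wild type matched on strain and age, 12 members were higher (11.7%, against 9.21% of all) and 9 were lower (8.74%, against 9.68% of all). Of the 17 members with an unadjusted p under 0.05, 7 had their lowest value of all 9 arrays in the tumour. Over all probe sets tested, whatever their p, that share was 18.1%, and it was not computed for those with such a p. Without the hybrid cystic ovary 10 members had such a p, against 5.98% of all. Among the lists of other cell types, 4 of 5 tested adipocyte genes and 3 of 5 tested smooth muscle genes were lower at an unadjusted p under 0.05. Their lists had summed levels of 4604 to 5334 and 16814 to 30917 units in transgenic ovaries, against 5158 to 12839 and 18579 to 35294 units in wild types. The largest parts of these sums, Lpl and Acta2, were not among the genes with such a p. The part of these cell types in the member counts was not tested. With a term for the control profile, equivalent here to a fit without the 5-month hybrid wild type, 0 members passed and 16 had an unadjusted p under 0.05, against 7.8% of all probe sets.

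**Figure D1:**
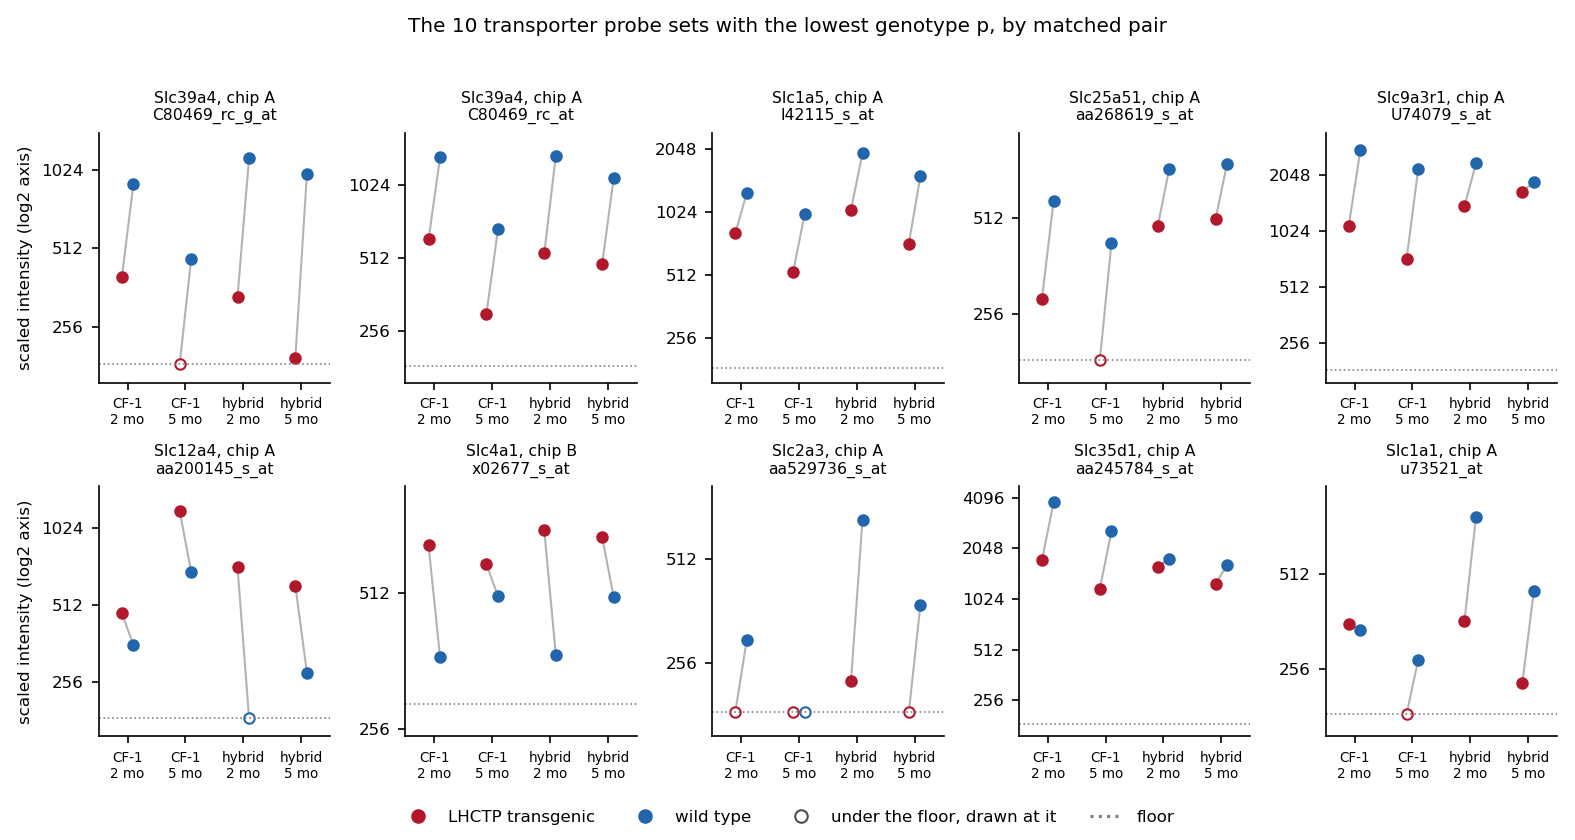
Scaled intensity (log2 axis) of the 10 member probe sets with the lowest genotype p, for each pair of LHCTP transgenic (red, left) and wild-type (blue, right) ovary of the same strain and age; 1 array per point, open points lie under the floor (dotted) and are drawn at it. The 2 Slc39a4 probe sets, Slc1a5, Slc25a51, Slc9a3r1 and Slc35d1 were lower in transgenic ovaries in 4 of 4 pairs, and Slc12a4 and Slc4a1 were higher in 4 of 4.

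Among the metal carriers, the zinc importer Slc39a4 had the lowest p of any member. Slc39a4 takes zinc into cells and is best known from the intestine. One of its probe sets read 396, 1.63, 334 and 195 units in transgenic ovaries, against 900.3, 467, 1138 and 989 units in their wild-type partners, in the order CF-1 of 2 and 5 months and hybrid of 2 and 5 months. It had a log2 difference of -1.66 ± 0.24 (SE) and limma's adjusted p = 0.0926, and the difference is understated because the tumour lay under the floor. The second probe set read 612, 300.0, 535 and 482 units in transgenic ovaries, against 1340.1, 673, 1357 and 1096 units in their wild-type partners, with a log2 difference of -1.21 ± 0.20 (SE) and limma's adjusted p = 0.112. Within each strain and age the transgenic ovary was the lower of the pair on both probe sets, against 9.68% of all probe sets lower in 4 of 4 pairs. The 4 transgenic ovaries lay below all 4 wild types, the nearest being the CF-1 cystic ovary and the CF-1 wild type of 5 months. The share of all probe sets that separate in this way was not computed, and Slc39a4 was picked by its p. By their names the 2 probe sets come from the same source sequence, so they are not independent of each other. In the hCG-treated ovary the probe sets read 589 and 612 units, against 467 and 673 units in the CF-1 wild type of 5 months.

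Markers of epithelium and oviduct moved with Slc39a4. Of 12 such genes 11 were on the chips and 10 were tested, 7 of these were lower at an unadjusted p under 0.05, against 5.34% of all probe sets, and 0 were higher, and their median log2 difference was -1.22. Their summed level was 2917 to 16691 units in the 4 transgenic ovaries and 20523 to 31559 units in the 4 wild types. These groups did not overlap, but the share of all probe sets without overlap was not computed. The summed level was 24421 units in the hCG-treated ovary. The gene Ovgp1 was the largest part of this sum on every array but the tumour. It read 9714 units in the hybrid cystic ovary and 9338 units in its wild type, so the sum is no even measure of the list. The keratin genes Krt18 and Krt19, the cadherin gene Cdh1 and Ovgp1, a glycoprotein of oviduct fluid, lay under the floor in the tumour. So did Cldn3, Muc1 and Msln, which were under it on other arrays too. Krt8, Krt7, Epcam and Pax8 stayed above the floor in the tumour, at 608, 1003, 228 and 318 units. Krt7 was not lower there than in the CF-1 wild type of 5 months, at 941 units. The part of these markers in the Slc39a4 difference was not tested.

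The other metal carriers gave no shared direction. Of 14 tested metal carrier probe sets, 6 were above 0 and 8 below, with a median log2 difference of -0.16. Only the 2 of Slc39a4 had an unadjusted p under 0.05, both lower, while 5.34% of all probe sets were lower and 4.68% higher at such a p. Slc39a7, which releases zinc from the secretory pathway, read 3772, 3164, 3223 and 2677 units in transgenic ovaries, against 4095, 2347, 3573 and 2922 units in their wild-type partners. The 2 probe sets of the copper importer Slc31a1 had log2 differences of -0.32 and -0.14. The zinc exporter Slc30a1 read 580.0, 216, 474 and 742 units in transgenic ovaries, against 406, 312, 431 and 455 units in their wild-type partners, with no order shared by the 4 pairs. The iron importer Slc11a2 was higher in 4 of 4 pairs by small amounts, with a log2 difference of 0.18 ± 0.22 (SE). Of 7 measured iron and heme proteins, 6 were tested, of which Hmox1, a heme-degrading enzyme, was higher and Ltf, a secreted iron-binding protein, lower at an unadjusted p under 0.05, and 0 passed the adjusted threshold.

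Among the 11 tested amino acid carriers, 2 were higher and 2 lower at an unadjusted p under 0.05, against 4.68% and 5.34% of all probe sets. Slc1a5 imports glutamine and other neutral amino acids. It read 811, 529, 1049 and 723 units in transgenic ovaries, against 1263, 1003, 1967 and 1521 units in their wild-type partners, with a log2 difference of -0.89 ± 0.15 (SE) and limma's adjusted p = 0.113. The transgenic ovary was lower in each pair, and the hCG-treated ovary read 579.8 units, below the CF-1 wild type of 5 months. Slc1a1, a carrier of glutamate and cysteine, was lower in 3 of 4 pairs. It read 356, 97.0, 362 and 230.2 units in transgenic ovaries, against 338, 273, 777 and 452 units in their wild-type partners, with a log2 difference of -0.64 ± 0.22 (SE) and limma's adjusted p = 0.444. Of these arrays only the hybrid wild types reached the detection limit of 368 units, so Slc1a1 was tested only through the genotype where it was high. Slc38a5 exchanges glutamine, histidine and glycine, and read 6788, 14010, 6239 and 3336 units in transgenic ovaries, against 4548, 4487, 701 and 3602 units in their wild-type partners, with a log2 difference of 1.32 ± 0.48 (SE) and limma's adjusted p = 0.465. The tumour was the highest of these arrays and the hybrid wild type of 2 months the lowest, while the hybrid pair of 5 months differed little. Slc38a10, a further member of that family, read 3408, 4576, 2473 and 4369 units in transgenic ovaries, against 2748, 4051, 1973 and 2256 units in their wild-type partners, higher in 4 of 4 pairs, with a log2 difference of 0.44 ± 0.18 (SE) and limma's adjusted p = 0.489. Slc3a2, the heavy chain that brings several amino acid exchangers to the cell surface, had 2 tested probe sets with log2 differences of 0.43 ± 0.24 and 0.17 ± 0.16 (SE). On the second it read 8406, 10959, 8222 and 7578 units in transgenic ovaries, against 8302, 9051, 7081 and 6825 units in their wild-type partners, and the groups overlapped.

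Carriers of ions, bicarbonate and protons lay mostly above 0, with 12 of 14 tested probe sets above (50.03% of all probe sets were) and 2 below and a median log2 difference of 0.20. At an unadjusted p under 0.05, 4 were higher and 1 was lower, against 4.68% and 5.34% of all probe sets, and 0 passed the adjusted threshold. Slc12a4 and Slc12a7 carry potassium and chloride out of cells. Slc12a4 read 475, 1190.4, 717 and 607 units in transgenic ovaries, against 355, 686, 158 and 277 units in their wild-type partners, with a log2 difference of 1.08 ± 0.31 (SE) and limma's adjusted p = 0.347. Slc12a7 read 2908, 2846, 1624 and 2719 units in transgenic ovaries, against 1974, 1846, 1761 and 1450.4 units in their wild-type partners, with a log2 difference of 0.49 ± 0.20 (SE) and limma's adjusted p = 0.489. Slc12a4 was higher in every pair, most in the hybrid pair of 2 months where the wild type lay under the floor, and Slc12a7 was higher in 3 of 4 pairs. Slc41a1, a magnesium carrier, read 1363, 2393, 1482 and 1974 units in transgenic ovaries, against 1124, 931, 1212 and 1375 units in their wild-type partners, with a log2 difference of 0.61 ± 0.21 (SE) and limma's adjusted p = 0.447, and was higher in 4 of 4 pairs. Slc9a3r1, the scaffold protein, read 1096, 726, 1392 and 1672 units in transgenic ovaries, against 2792, 2206, 2381 and 1891 units in their wild-type partners, with a log2 difference of -0.98 ± 0.26 (SE) and limma's adjusted p = 0.31. It was lower in every pair, and the difference was smallest in the hybrid pair of 5 months.

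Slc4a1, the chloride-bicarbonate exchanger of red cells known as band 3, was measured on both chips. On chip B it read 654, 594, 707 and 683 units in transgenic ovaries, against 369, 504, 374 and 502 units in their wild-type partners, with a log2 difference of 0.61 ± 0.18 (SE) and limma's adjusted p = 0.356. All 4 of these transgenic ovaries and no wild type reached the chip B detection limit of 581 units. Among these arrays Slc4a1 was thus tested there only through the genotype where it was high. With the floor doubled its log2 difference on chip B was 0.18. On chip A it read 1206, 1338, 851 and 944 units in transgenic ovaries, against 1083, 1264, 586 and 1072 units in their wild-type partners, with a log2 difference of 0.15 ± 0.18 (SE), higher in 3 of 4 pairs there and in 4 of 4 on chip B. Of 12 erythroid genes 7 were on the chips and 5 were tested, and 1, the heme synthesis enzyme Alas2, was higher at an unadjusted p under 0.05, against 4.68% of all probe sets. The summed erythroid level was 23197 to 81800 units in transgenic ovaries and 27207 to 30765 units in wild types, which overlap, and Epb42 and Gata1 lay under the floor on all 9 arrays. The part of red cell RNA in the Slc4a1 values was not tested.

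Sugar and polyol carriers were few, with 5 tested, 3 above 0 and 2 below. Slc2a3 and Slc2a1 bring glucose into cells. Slc2a3 read 70.9, -27.7, 226 and 23.5 units in transgenic ovaries, against 299, 124, 668 and 376 units in their wild-type partners, and its log2 difference of -0.82 ± 0.25 (SE; limma's adjusted p = 0.402) is understated, since 4 of these 8 arrays lay under the floor. Of these 8 arrays only the 2 hybrid wild types reached the detection limit of 368 units. Slc2a3 was thus tested only through the genotype where it was high. Its log2 difference was -0.22 with the floor doubled and -2.57 with a floor of 20 units. Slc2a1 read 563, 393, 419 and 240.0 units in transgenic ovaries, against 664, 322, 794 and 463 units in their wild-type partners, with a log2 difference of -0.45 ± 0.24 (SE). Both were dim, and Slc2a1 was lower in the transgenic ovary in 3 of 4 pairs. The lactate and pyruvate carrier Slc16a1 read 1403, 2815, 1253 and 1351 units in transgenic ovaries, against 954, 1422, 934 and 1317 units in their wild-type partners on chip B, with a log2 difference of 0.50 ± 0.21 (SE) and limma's adjusted p = 0.49, but its chip A probe set had a log2 difference of -0.06 ± 0.23 (SE).

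Mitochondrial carriers, the largest role group with 16 tested probe sets, were split evenly, with 8 above 0 and 8 below and a median log2 difference of -0.00036. The adenine nucleotide carriers Slc25a4 and Slc25a5 exchange ATP and ADP across the inner membrane. On chip A, Slc25a4 read 4619.5, 4356, 5345 and 3962 units in transgenic ovaries, against 4867, 3467, 5423 and 4817 units in their wild-type partners, with a log2 difference of -0.01 ± 0.16 (SE). The 3 probe sets of Slc25a5 had log2 differences of 0.04 ± 0.15, 0.12 ± 0.18 and -0.12 ± 0.24 (SE), and these probe sets may read related genes. Each of these differences was smaller than its SE. Slc25a51, a carrier of NAD, read 286, 43.3, 481 and 507 units in transgenic ovaries, against 578, 426, 728 and 756 units in their wild-type partners on 1 probe set, with a log2 difference of -0.85 ± 0.20 (SE) and limma's adjusted p = 0.269. Its second probe set had a log2 difference of 0.01 ± 0.19 (SE), so the gene has no settled direction. Slc25a33, a carrier of pyrimidine nucleotides, read 463, 827, 622 and 575 units in transgenic ovaries, against 97.7, 694, 386 and 188 units in their wild-type partners, with a log2 difference of 0.97 ± 0.43 (SE) and limma's adjusted p = 0.531, and was higher in 4 of 4 pairs.

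Among carriers of the Golgi apparatus and endoplasmic reticulum, 1 of 8 tested probe sets was lower at an unadjusted p under 0.05 and 0 were higher. Of all probe sets 5.34% were lower and 4.68% higher at such a p, and 1 of 8 is too few to describe the group. This was Slc35d1, which brings UDP-sugars for glycosaminoglycans into the reticulum, and it read 1755, 1180.3, 1592 and 1265 units in transgenic ovaries, against 3847, 2590.0, 1784 and 1630.1 units in their wild-type partners, with a log2 difference of -0.70 ± 0.22 (SE) and limma's adjusted p = 0.413. Both CF-1 pairs differed more than the hybrid pairs. In the group of vitamin, nucleoside, organic ion, peptide and bile acid carriers, with 9 tested, the peptide carrier Slc15a2 read 327, 334, 264 and 242 units in transgenic ovaries, against 446, 329.9, 423 and 418 units in their wild-type partners, with a log2 difference of -0.47 ± 0.18 (SE) and limma's adjusted p = 0.47. Of these arrays only wild types reached the detection limit of 368 units, so Slc15a2 was tested only through the genotype where it was high. The nucleoside carrier Slc29a1 of the same group read 2548, 3828, 3039.5 and 4223 units in transgenic ovaries, against 2226, 4829.9, 1844 and 2231 units in their wild-type partners, with a log2 difference of 0.38 ± 0.24 (SE). Among 6 tested carriers of neurotransmitters, taurine and creatine, 5 were above 0 and 1 below, and 0 had an unadjusted p under 0.05. Slc66a2, the 1 tested member without a role group, read 3107, 4987, 2594 and 2834 units in transgenic ovaries, against 2396, 1796, 2597 and 2342 units in their wild-type partners, with a log2 difference of 0.53 ± 0.25 (SE).

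The ABC lipid transporters were split evenly, with 3 of 6 tested probe sets above 0 and 3 below. Abca1 loads cholesterol onto apolipoproteins and Abcg1 onto lipoprotein particles. Abca1 read 3435, 3323, 2430.1 and 2514 units in transgenic ovaries, against 3097, 3437, 5543 and 4782 units in their wild-type partners, with a log2 difference of -0.50 ± 0.25 (SE) and limma's adjusted p = 0.574. Abcg1 read 874, 910.4, 966 and 912 units in transgenic ovaries, against 920.5, 1208, 951 and 842 units in their wild-type partners, with a log2 difference of -0.09 ± 0.17 (SE). Abca1 was lower in both hybrid pairs and close to its wild type in both CF-1 pairs, and Abcg1 was the lower or the higher of its pair by little, most in the CF-1 pair of 5 months. Abca2, a lipid transporter of lysosomes and endosomes, read 1829, 2687, 1769 and 2810.3 units in transgenic ovaries, against 800.3, 2382, 1289 and 1012 units in their wild-type partners, higher in 4 of 4 pairs, with a log2 difference of 0.82 ± 0.29 (SE) and limma's adjusted p = 0.447. Abcd3, which brings fatty acids into peroxisomes, had log2 differences of 0.24 ± 0.18 on chip A and 0.11 ± 0.23 on chip B (SE). Of the ABC efflux pumps, 3 were tested and 0 had an unadjusted p under 0.05 for genotype, and of the ABC proteins of organelles and the ribosome, which include Abcf1 with a log2 difference of 0.09 ± 0.22 (SE), 4 were tested and 0 had one. The 3 tested fatty acid transport proteins, 2 probe sets of Slc27a1 and that of Slc27a2, had log2 differences between -0.23 and 0.24.

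**Figure D2:**
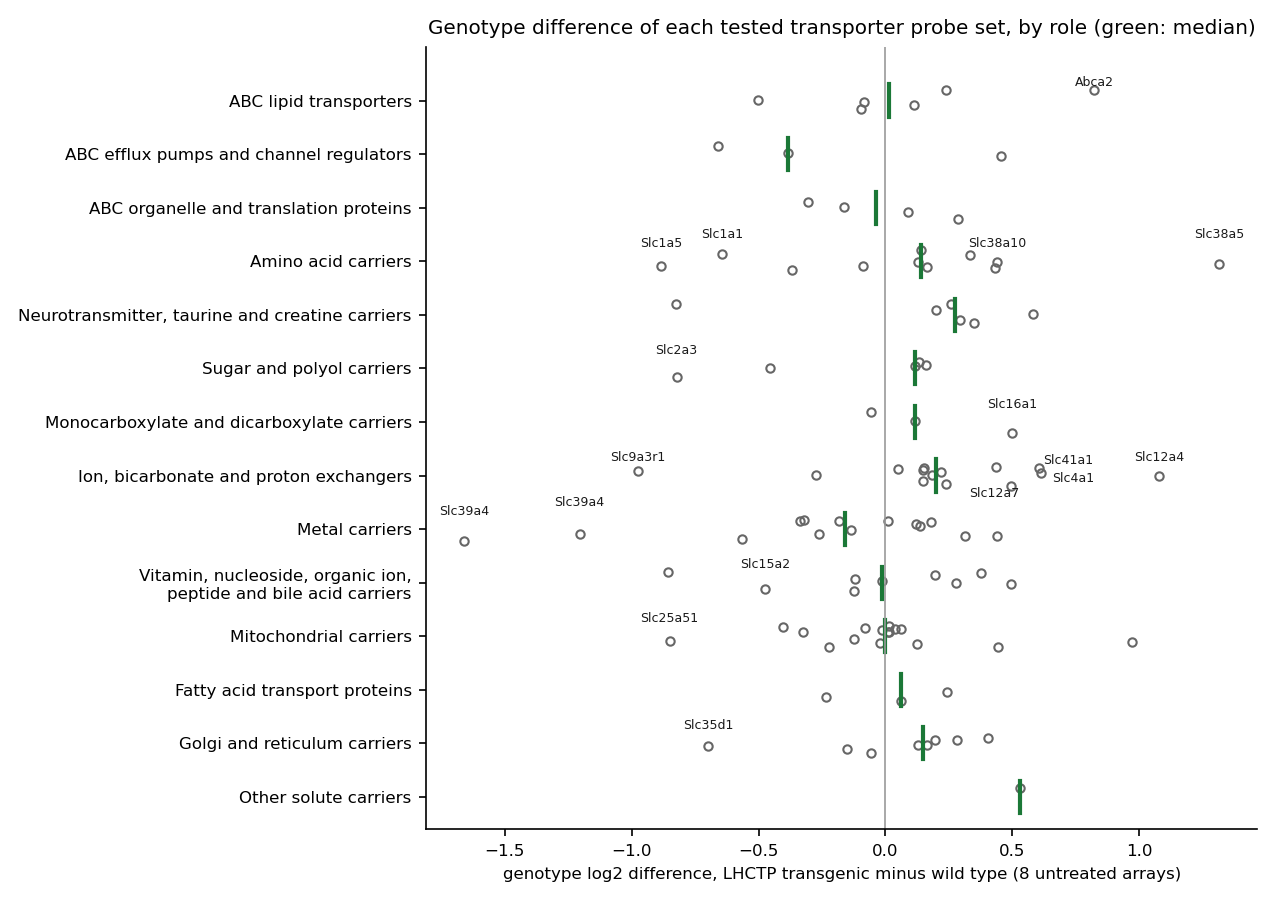
Genotype log2 difference (LHCTP transgenic minus wild type, horizontal axis) of each of the 103 tested member probe sets, 1 open circle each, by role; vertical scatter within a role has no meaning, green bars are medians, and members with an unadjusted p under 0.05 are named. Role medians ran from -0.38 for 3 ABC efflux pumps to 0.28 for 6 neurotransmitter, taurine and creatine carriers, with 0.53 for the 1 member without a role group.

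Whether the genotype difference depended on age or strain was tested with interaction terms. No member passed limma's adjusted threshold for genotype by age, where 0% of all passed, or for genotype by strain, where 0% of all passed. At an unadjusted p under 0.05, genotype by age had 2 members higher (1.94%, against 1.17% of all) and 2 lower (1.94%, against 1.59% of all), and genotype by strain had 6 higher (5.83%, against 2.65% of all) and 3 lower (2.91%, against 2.78% of all). The member with the lowest of these p-values was Slc11a1, an iron and manganese carrier of macrophage phagosomes. It read 124, 175, 451 and 574 units in transgenic ovaries, against 16.5, 416, -49.0 and -156 units in their wild-type partners, and the difference was higher in hybrids than in CF-1 by 2.06 on the log2 scale (limma's unadjusted p = 0.00451, adjusted p = 0.854). Most of these 8 arrays lay under the floor, and the 2 hybrid transgenic ovaries and the CF-1 wild type of 5 months were the ones at the detection limit. The summed level of 12 macrophage and antigen presentation genes was 30445 to 55716 units in the 4 transgenic ovaries and 30562 to 86219 units in the wild types, with the highest in CF-1 wild type of 5 months, and of 10 tested 2 were lower at an unadjusted p under 0.05, against 5.34% of all probe sets. Their part in the Slc11a1 values was not tested. For Abca1 the difference was lower in hybrids than in CF-1, with a log2 interaction of -1.11 (limma's unadjusted p = 0.0111, adjusted p = 0.854).

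Each transgenic ovary was then set against the wild type of its own strain and age, with members counted when 1 side was at least 3-fold the other and the brighter side was at the limit. These pairs have 1 array on each side and no test. In the CF-1 pair of 2 months, 0 members were above and 0 below, against 0.702% and 0.531% of all probe sets. In the hybrid pair of 2 months, 2 were above, against 1.12% of all, and 2 below, against 1.11% of all. Those above were Slc38a5, at 6239 units in the cystic ovary against 701 units in its wild type (8.90-fold), and Slc12a4 (at least 3.90-fold). Those below were the first Slc39a4 probe set (3.41-fold) and Slc5a11, a carrier of myo-inositol, at -4.24 units in the cystic ovary against 1066 units in its wild type (at least 5.80-fold). Slc5a11 was erratic across conditions, since it also read 498 units in the CF-1 cystic ovary and 543 units in the hybrid luteoma and was under the floor in both CF-1 wild types, the tumour and the hybrid wild type of 5 months.

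Between the tumour and its wild type, the CF-1 pair of 5 months, 1 member was above, against 1.47% of all, and 5 were below, against 2.95% of all. Slc38a5 was the one above, at 14010 units in the tumour against 4487 units in the wild type (3.12-fold). Below were Abcb1b (at least 17.5-fold), Slc6a8, a creatine carrier (at least 4.78-fold), Slc20a1 (3.77-fold), Slc22a23, an orphan of the organic ion family (3.43-fold), and Slc9a3r1 (3.04-fold). Slc6a8 read 5.23 units in the tumour and 878 units in its wild type, and also lay under the floor in the hybrid cystic ovary, at 144 units. Slc22a23 read 1009 units in the tumour and 3464 units in its wild type, which was the highest of the 9 arrays. In the hybrid pair of 5 months, which sets the luteoma against a wild type of the other control profile, 2 members were above, against 2.14% of all, and 1 was below, against 1.7% of all. Above were Slc11a1 (at least 3.12-fold) and Slc25a33 (3.06-fold), and below was the first Slc39a4 probe set (5.08-fold). Slc39a4 was the only member called below in both hybrid pairs, and Slc38a5 the only one called above in more than 1 pair.

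The largest single difference among the members was in the CF-1 granulosa cell tumour. Abcb1b, the multidrug efflux pump of the rodent ovary and adrenal, was under the floor there. It read 22.9 units in the tumour, against 2760.2 to 8196 units on the other 8 arrays, and the lowest of these 8 was at least 15.0-fold higher than the tumour. In full, it read 8196 and 4657 units in the CF-1 and hybrid cystic ovaries, 6971 units in the hybrid luteoma, 5480.5 units in the hCG-treated luteoma, 6760.1 and 3217 units in the CF-1 wild types of 2 and 5 months, and 5091 and 2760.2 units in the hybrid wild types of 2 and 5 months. The tumour array alone was under the floor, and the CF-1 cystic ovary and the hybrid luteoma were the highest. It was the only member at least 3-fold below every other array, against 0.609% of all probe sets, and 0 members were at least 3-fold above, against 0.281% of all.

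Luteal markers and several steroidogenesis genes were low in the same array. Of 8 luteal genes 3 were on the chips, and their summed level was 239 units in the tumour, against 8146 to 16922 units on the other 8 arrays. This sum is mostly 1 gene, since Ptgfr was its largest part on every array and Parm1 lay under the floor on all 9. The summed level of 8 measured steroidogenesis genes was 59963 units in the tumour, against 69233 to 159370 units elsewhere, and Star, which brings cholesterol into mitochondria, lay near the floor there at 188 units, against at least 11263 units elsewhere. Of the other steroidogenesis genes, Cyp11a1, Fdx1, Hsd3b1 and Cyp17a1 also had their lowest value in the tumour, whereas Hsd17b1, which makes estradiol from estrone, had its highest there (16047 units, against at most 5765 elsewhere), as did the nuclear receptor gene Nr5a1 (5524 units, against at most 5080 elsewhere). The luteal receptor gene Ptgfr, at 217 units, was near the floor in the tumour, and Bhmt was under it. The part of these cells in the Abcb1b value was not tested.

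Further members were lowest in the tumour by a smaller margin. Slc23a2, which imports vitamin C, read 362 units in the tumour, against 981 to 2603 units on the other 8 arrays, a gap of 2.71-fold. Slc20a1, a phosphate importer, read 355 units in the tumour, against 868 to 3185 units on the other 8 arrays, a gap of 2.44-fold. Abcg2, an efflux pump of drugs, urate and porphyrins, read 269 units in the tumour, against 493 to 1031 units on the other 8 arrays, a gap of 1.83-fold. The remaining gaps were 1.61-fold for the second Slc39a4 probe set, 1.51-fold for Slc9a3r1, 1.40-fold for the zinc exporter Slc30a4 and 1.34-fold for Abcf1. On these 4 the tumour was the lowest array, by less than 2-fold from the next. Slc23a2 and Slc30a4 were highest in the hCG-treated ovary, at 2603 and 2092 units.

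On the other side, Slc38a5 stood furthest above. It read 14010 units in the tumour, against 701 to 6788 units on the other 8 arrays, a gap of 2.06-fold. Slc16a1 on chip B read 2815 units in the tumour, against 934 to 1422 units on the other 8 arrays, a gap of 1.98-fold on the array whose description gives another age, but on chip A it read 512 units in the tumour, against 362 to 708 units on the other 8 arrays. Abcc3, an exporter of conjugates, read 780.4 units in the tumour, against 112 to 458 units on the other 8 arrays, a gap of 1.70-fold. A second Abcc3 probe set, too dim to be tested, read 167 units in the tumour, against 116 to 248 units on the other 8 arrays, so neither Slc16a1 nor Abcc3 was highest in the tumour on both of its probe sets. Slc27a1, which takes up and activates fatty acids, was highest in the tumour on both chips, at 3625 units on chip A and 2072 units on chip B, against at most 2337 and 1417 units on the other arrays. The highest of those other arrays was the CF-1 wild type of 5 months on both chips. Slc12a4 had a gap of 1.66-fold, Slc66a2 of 1.61-fold and Slc38a2, a carrier of small neutral amino acids, of 1.59-fold.

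**Figure D3:**
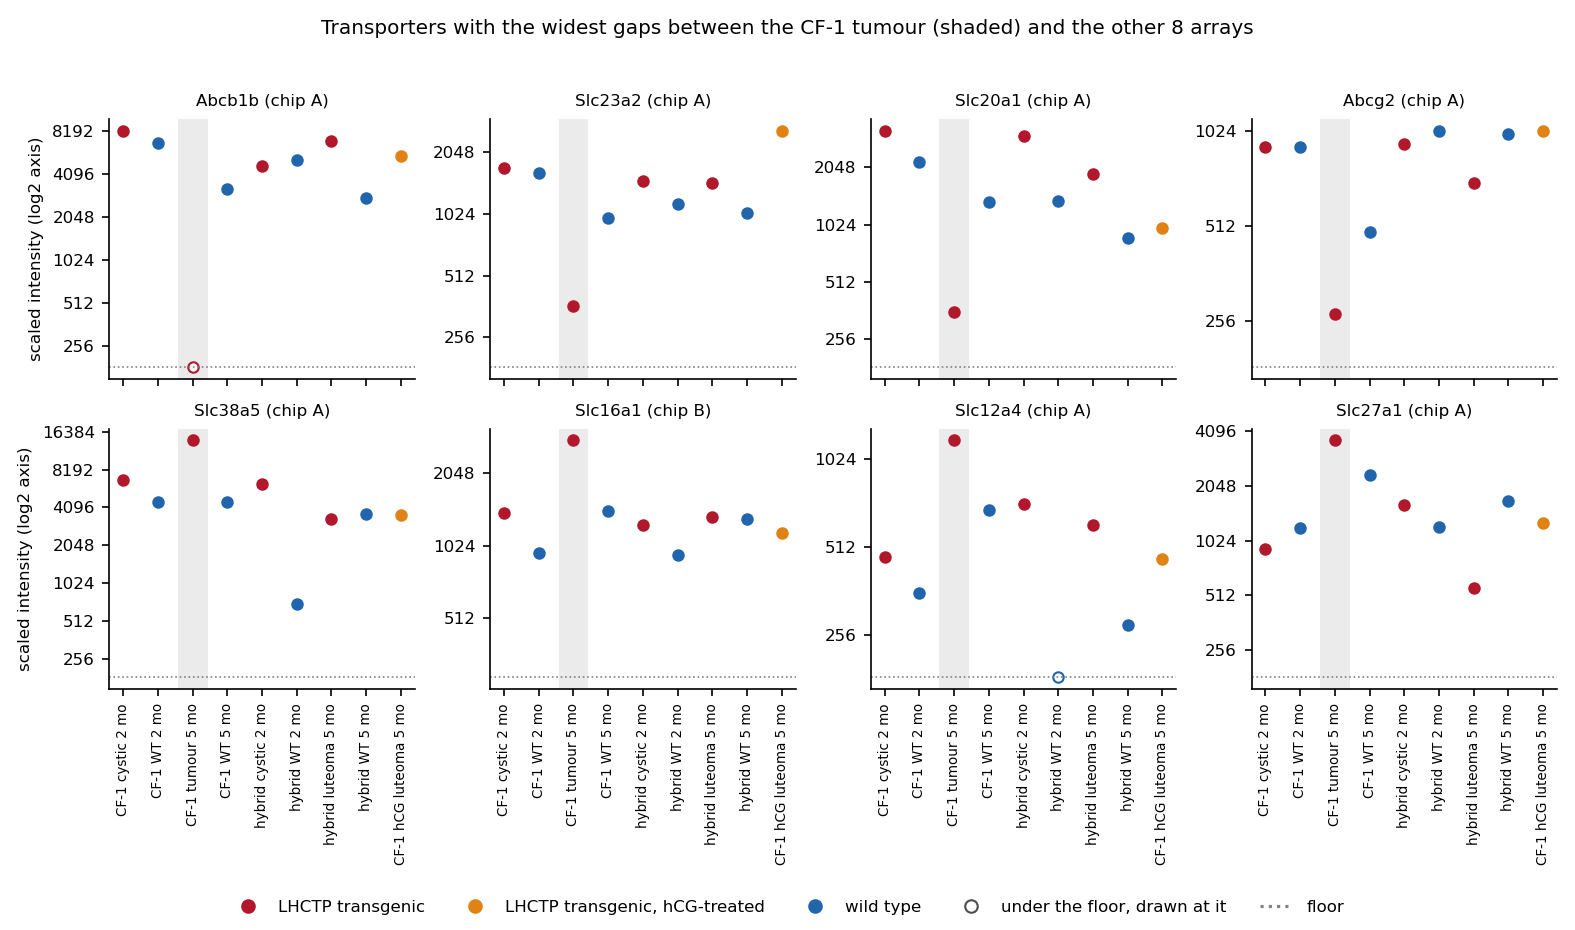
Scaled intensity (log2 axis) of 8 members over the 9 conditions, 1 array per point, with the CF-1 tumour shaded; red, LHCTP transgenic; orange, hCG-treated LHCTP transgenic; blue, wild type; open points lie under the floor (dotted) and are drawn at it. Abcb1b, Slc23a2, Slc20a1 and Abcg2 were lowest in the tumour, and Slc38a5, Slc16a1 on chip B, Slc12a4 and Slc27a1 were highest there.

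The promoters of the 2 efflux pumps that were lowest in the tumour were read from RefSeq for mouse assembly GRCm38.p6, which listed promoters for 106 of the 128 genes. They were searched on both strands for AAGGTCA, the half-site letters of the steroidogenic nuclear receptors Nr5a1 and Nr5a2, and for TGACGTCA, the cAMP response element, each whether or not it overlapped the other. Capitals mark a match. A promoter is listed once for Abcb1b, at chr5:8797897-8798196 on the + strand, and 3 times for Abcg2, of which chr6:58584283-58584582 and chr6:58640296-58640595 on the + strand held a match and are shown.
Abcb1b: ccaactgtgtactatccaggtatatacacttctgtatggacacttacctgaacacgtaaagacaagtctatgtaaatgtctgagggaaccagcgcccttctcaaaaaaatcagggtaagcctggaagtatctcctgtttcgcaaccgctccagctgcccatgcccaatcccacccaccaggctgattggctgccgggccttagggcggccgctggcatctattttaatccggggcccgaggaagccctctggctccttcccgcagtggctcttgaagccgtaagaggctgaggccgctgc
Abcg2, first: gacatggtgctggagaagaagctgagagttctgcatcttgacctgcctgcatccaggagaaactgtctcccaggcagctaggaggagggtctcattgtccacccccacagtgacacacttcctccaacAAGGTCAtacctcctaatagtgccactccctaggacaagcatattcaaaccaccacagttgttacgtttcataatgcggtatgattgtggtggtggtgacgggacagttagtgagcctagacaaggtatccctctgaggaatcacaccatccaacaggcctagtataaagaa
Abcg2, second: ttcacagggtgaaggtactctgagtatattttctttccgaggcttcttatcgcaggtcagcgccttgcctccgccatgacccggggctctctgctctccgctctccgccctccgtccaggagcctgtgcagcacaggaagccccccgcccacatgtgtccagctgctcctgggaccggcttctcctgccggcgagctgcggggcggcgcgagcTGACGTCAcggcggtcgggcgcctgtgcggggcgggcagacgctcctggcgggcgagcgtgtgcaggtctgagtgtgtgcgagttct

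The Abcb1b promoter held neither. The first Abcg2 promoter held AAGGTCA, beginning 122 bases before the annotated start, and the second held TGACGTCA, beginning 37 bases before it. AAGGTCA occurred in 4.72% of 32851 promoters of this length and in 6 of 141 member promoters (4.26%), those of Abcg2, Slc11a1, Slc27a2, Slc2a2, Slc5a11 and Slc6a13, and TGACGTCA in 1.79% and in 2 of 141 (1.42%), those of Abce1 and Abcg2. A match is a string of letters and no binding was measured.

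The 2 luteomas, the hybrid one and the hCG-treated CF-1 one, differ in strain and treatment and were set together against the other 7 arrays. No member stood 2-fold above all others in both, against 0.0468% of all probe sets, and none 2-fold below, against 0.0312% of all. Slc6a6, which imports taurine, came nearest above. Its brightest probe set read 10118 units in the hybrid luteoma and 7153 units in the hCG-treated luteoma, against 2985 to 5292 units on the other 7 arrays, a gap of 1.35-fold. A second read 2565 units in the hybrid luteoma and 2348 units in the hCG-treated luteoma, against 969 to 1687 units on the other 7 arrays, a gap of 1.39-fold. Both luteomas were above every other array on these 2 probe sets. On the third the hybrid luteoma was highest but the hCG-treated ovary, at 1221 units, was below the CF-1 wild type of 5 months, at 1859 units. The next gaps above were 1.17-fold for Slc30a1 and 1.10-fold for Slc11a2, and below 1.16-fold for the sodium-proton exchanger Slc9a8 and 1.06-fold for Slc25a47, a mitochondrial carrier.

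The hCG-treated ovary was also set against the CF-1 wild type of 5 months. No member was 3-fold above, against 1.89% of all probe sets, and none 3-fold below, against 1.75% of all. Abcb1b read 5480.5 units in the hCG-treated ovary and 3217 units in that wild type, and Slc38a5 3565 and 4487 units. Neither carrier showed in the hCG-treated ovary the level it had in the untreated tumour of the same strain and age.

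Age was read as 5 against 2 months over the same 8 arrays. No member passed limma's adjusted threshold, and 0.0156% of all probe sets did. At an unadjusted p under 0.05, 11 members were higher at 5 months (10.7%, against 9.63% of all) and 15 lower (14.6%, against 9.91% of all). These 26 became 9 without the CF-1 cystic ovary (11.1% of all probe sets had such a p), 13 without its wild type (11.5% of all) and 16 without the 5-month CF-1 wild type (13.5% of all). Abca4, known as a retinoid transporter of photoreceptors, had the lowest p. It read -2.29, 121, -22.7 and 214 units at 5 months, against 406, 379, 303 and 365 units at 2 months, in the order CF-1 transgenic, CF-1 wild type, hybrid transgenic and hybrid wild type. It had a log2 difference of -0.92 ± 0.16 (SE; limma's adjusted p = 0.133), was dim on every array and lay under the floor on 3 of the 4 arrays of 5 months. Of these 8 arrays only the 2 CF-1 ones of 2 months reached the detection limit of 368 units. Among them Abca4 was thus tested only through the age where it was high. Its log2 difference was -0.05 with the floor doubled and -2.67 with a floor of 20 units, so its size rests on the floor. Without the hybrid wild type of 5 months Abca4 passed, at a log2 difference of -0.99 and limma's adjusted p = 0.0467, as did 1 probe set of Slc39a4 and 254 probe sets in all. The next were Slc35e1, with 0.89 ± 0.25, Slc30a3, a vesicular zinc carrier, with -1.14 ± 0.33, Slc2a1 with -0.79 ± 0.24 and Slc6a12, a carrier of betaine and GABA, with 1.05 ± 0.32 (log2 differences ± SE). Their limma adjusted p-values ran from 0.163 to 0.175.

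Slc2a1 read 393, 322, 240.0 and 463 units at 5 months, against 563, 664, 419 and 794 units at 2 months, in the same order. Slc6a12 read 1008, 1461, 1451 and 1453 units at 5 months, against 1219, 461, 582 and 519 units at 2 months. Slc2a1 was lower at 5 months in all 4 age pairs, while Slc6a12 was higher in 3 and, in the CF-1 transgenic pair that ends in the tumour, lower. Of the 4 age pairs, 3 cross the control profiles and the hybrid wild types are the pair that does not. For the 26 members with an unadjusted p under 0.05, which were picked by a fit that holds all 4 pairs, the median size along the fitted direction was 0.34 on the log2 scale in the hybrid wild-type pair and 0.72 for the mean of the other 3, given as a description. With the control profile as a term, 6 members had an unadjusted p under 0.05, against 5.12% of all probe sets, and 0 passed. Of the arrays of 5 months, the age term of that fit rests on the hybrid wild type alone. The lower count therefore cannot be read as a loss of age differences. Without that array, 30 members had an unadjusted p under 0.05, against 26.3% of all probe sets. Age and the profile cannot be told apart in the 3 crossing pairs.

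**Figure D4:**
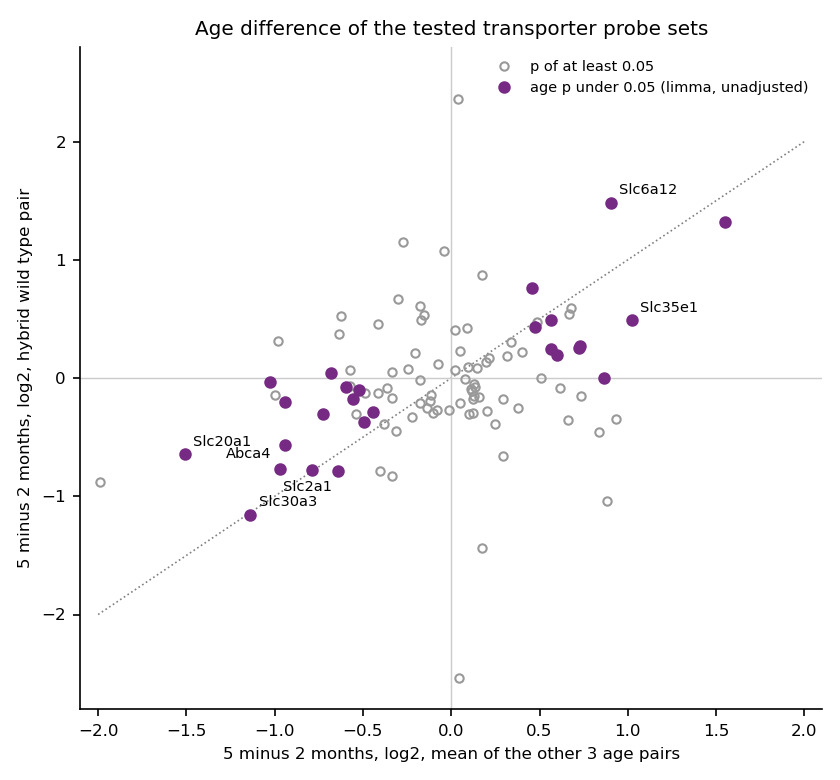
Age difference (log2, 5 minus 2 months) of each of the 103 tested member probe sets in the hybrid wild-type pair (vertical axis) against the mean of the other 3 age pairs (horizontal axis); filled points have an unadjusted limma p under 0.05, a few of them named, and the dotted line marks equal differences. The 26 filled points were picked by a fit that holds all 4 pairs, and their median size is 0.34 in the hybrid wild-type pair and 0.72 in the mean of the others.

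For strain, hybrid against CF-1, no member passed limma's adjusted threshold, and 0.0312% of all probe sets did. At an unadjusted p under 0.05, 5 members were higher in hybrids (4.85%, against 4.32% of all) and 5 lower (4.85%, against 3.56% of all). These 10 became 4 without the 2-month CF-1 wild type (5.12% of all) and 6 without the hybrid wild type of 2 months (7.63% of all). Slc1a5 was among those higher, at 1049, 1967, 723 and 1521 units in hybrids, against 811, 1263, 529 and 1003 units in CF-1, in the order transgenic and wild type of 2 months and transgenic and wild type of 5 months, with a log2 difference of 0.51 ± 0.15 (SE; limma's adjusted p = 0.512). Abcc3 was among those lower, at 188, 112, 389 and 173 units in hybrids, against 302, 358, 780.4 and 402 units in CF-1, with a log2 difference of -0.94 ± 0.26 (SE; limma's adjusted p = 0.469). Slc1a5 was higher in the hybrid of each of the 4 matched pairs, and Abcc3 lower in each. The others of lowest p were the first Slc25a51 probe set (0.84 ± 0.20), Slc4a1 on chip A (-0.53 ± 0.18) and Slc38a5 (-1.30 ± 0.48), given as log2 differences ± SE.

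Probe sets that repeat a gene were set against each other. Among the tested members, 16 genes had more than 1 probe set and 7 had them on both chips, which gave 20 comparisons over the 9 arrays. Pearson's correlation of log2 values ran from -0.34 to 0.97, with a median of 0.72 over all 20 and of 0.36 over the 8 across chips, and the genotype difference had the same sign in 15. These are descriptions over arrays that share their RNA, with no p. The 3 Slc6a6 probe sets gave 0.97, 0.76 and 0.78, the 2 of Slc39a4 gave 0.94 and those of Slc27a1 gave 0.72 across chips. The 2 of Slc39a4 lie on chip A and by their names come from the same source sequence, so they are no independent check. Slc16a1 gave -0.33, Slc8a1, a sodium-calcium exchanger, -0.26 and Abcd3 -0.02 across chips, and the 2 of Slc25a51 gave -0.34 on chip A. The probe sets of Slc6a6, Slc39a4 and Slc27a1 thus had similar profiles, although the 2 of Slc27a1 differed in the sign of their small genotype difference, and those of Slc16a1, Slc8a1, Abcd3 and Slc25a51 did not. Slc1a1, Slc2a3, Slc6a12 and Slc11a2 each rest on 1 tested probe set and have a further one that was too dim to be tested.

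**Figure D5:**
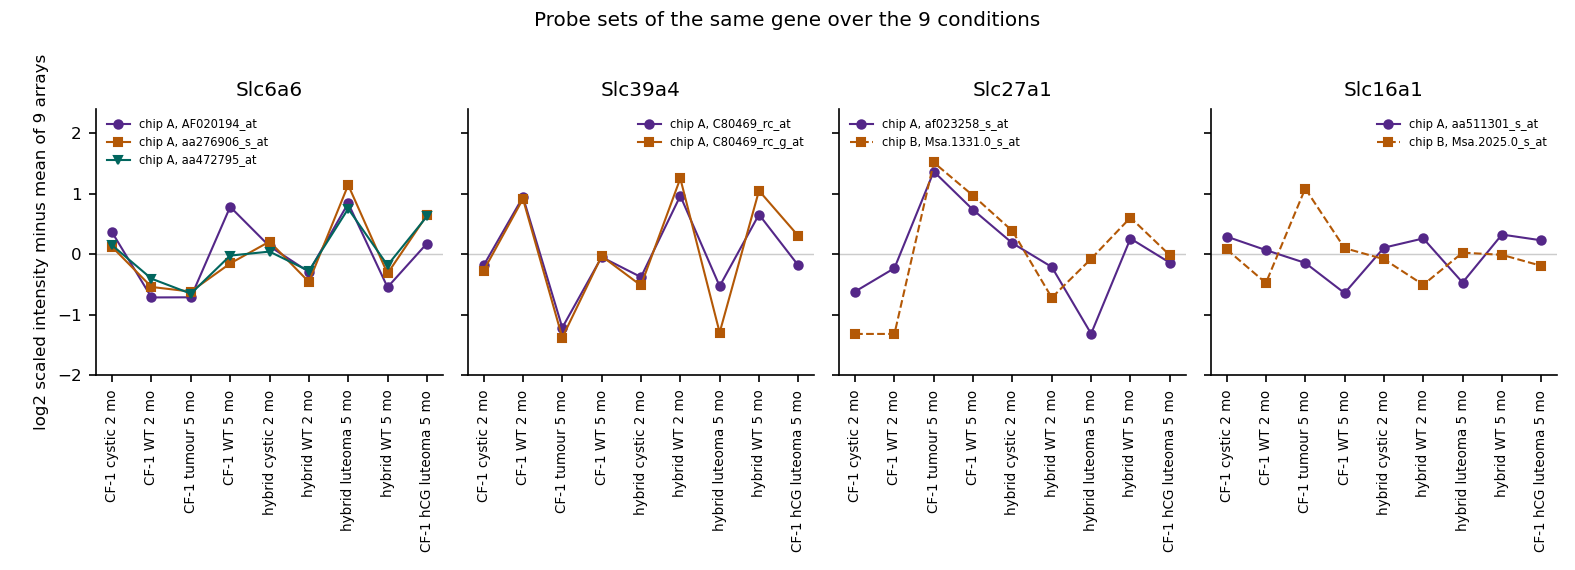
Log2 scaled intensity minus its mean over the 9 arrays, for each tested probe set of 4 genes over the 9 conditions; solid lines are chip A and dashed lines chip B. The probe sets of Slc6a6, Slc39a4 and Slc27a1 have similar profiles (Pearson's r of 0.72 to 0.97), and the 2 of Slc16a1 do not (-0.33).

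Other transport proteins outside the 2 symbol families were read from lists for comparison, beside 4.68% of all probe sets higher and 5.34% lower at an unadjusted p under 0.05. Of 17 measured ion pump genes 13 were tested, 0 passed limma's adjusted threshold for genotype and 1, Fxyd3, a regulator of the sodium pump, was lower at an unadjusted p under 0.05. Of 17 measured genes of lipoprotein and sterol uptake 14 were tested and 0 passed, and at an unadjusted p under 0.05 the scavenger receptor Cd36 and the lipoprotein receptor Lrp1 were higher and the fatty acid binding protein Fabp4 and the sterol carrier protein Scp2 lower. Scarb1, the receptor that takes up cholesterol from high-density lipoprotein, read 18022, 12525, 26047 and 18191 units in transgenic ovaries, against 15378, 21406, 12599.6 and 9442 units in their wild-type partners, and was higher in 3 of 4 pairs. Of 8 measured transporters of the same families under other symbols, such as Tap2, Ucp3 and Xpr1, 3 were tested, with 0 at an unadjusted p under 0.05, and of 3 measured water channels 1 was tested, also without one.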

How the data were processed

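The deposited values are linear intensities, 1 per probe set and array, many below 0. The sources used here do not give how the authors made these intensity values from the scans. Arrays of each chip type were scaled to a common trimmed mean (2nd to 98th percentile). For the floor, each array gave its 25th percentile or, if larger, the size of its 5th percentile, and the median of these was taken per chip type. Log2 differences use floored values, which understates those of dim probe sets, and a fold to an array under the floor is a lower bound, computed against the floor. Genes were named from the platform annotation, updated by gene number, and the 162 member entries all matched.

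An additive model of genotype, strain and age was fitted to the 8 untreated arrays of a chip type in R 4.3.3 (limma 3.58.1), leaving 4 residual degrees of freedom, or 3 with an interaction. P-values were adjusted over all 6408 tested probe sets (Benjamini-Hochberg, threshold 0.05). The fit was tested on simulated data. Comparisons of single arrays used rules of size: 3-fold beyond every other array for the tumour, 2-fold for the luteomas, and 3-fold within a pair.

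The members and lists were chosen with earlier results of these data known. Named members were the 10 of lowest genotype p, the 5 of lowest age and strain p, the 8 largest tumour gaps and up to 5 luteoma gaps on a side, those 3-fold apart in a pair, the brightest of each role, genes on both chips and a set of ovary-related carriers. Others named, mostly with an unadjusted p under 0.05, were chosen after their values were seen. Alternatives were quantile normalization, other floors and filters, trend and robust variances, the hCG array in the fit, a profile term, matched pairs as a block and each condition left out.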

Additional observations from a re-analysis of the deposited data

How the results depend on the processing

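The 10 genotype, 5 age and 5 strain members of lowest p were recomputed under each alternative that still tested them, and none of these values reversed in sign. The sizes of dim members moved with the floor, and the age difference of Abca4 was -0.05 with the floor doubled. With detection asked on all 9 arrays, only Slc1a5, Slc9a3r1 and Slc35d1 of the 10 genotype members were still tested. None of the 5 age members was, and of the strain members Slc25a51 and Abcc3 were not. Slc2a3 was not tested with quantile normalization. In these, 324 values kept their side of the threshold and 1 crossed it. The other members named, and the interaction values of single members, were not recomputed. Of the counts past a threshold, 12 moved by over 1.5 times and are given here. The median genotype difference over the members, 0.11 on the log2 scale, was 0.06 with the floor doubled and 0 with no filter, and 0.03 to 0.09 with 1 condition left out. For age, 2 members, Abca4 and Slc39a4, passed without the hybrid wild type of 5 months, and leaving out each condition in turn gave 0 to 2. With quantile normalization, 1 member (Slc35e1) was 3-fold lower in the hCG-treated ovary than in the CF-1 wild type, 1 (Slc22a23) was 3-fold apart in the CF-1 pair of 2 months, and 5 were in the hybrid pair of 5 months. With a floor of 20 units, 3 were apart in the CF-1 pair of 2 months and 6 in the hybrid pair of 5 months. With the floor doubled, 2 were apart in the hybrid pair of 2 months and 0 in that of 5 months. Among members detected on all 9 arrays, where Abcb1b is not tested, 0 met the tumour rule, 3 were apart in the CF-1 pair of 5 months, 1 in the hybrid pair of 2 months and 0 in that of 5 months. Fewer members are tested there, and the other causes were not tested. With matched pairs of strain and age as a block, or with trend and robust variances, 0 members passed for genotype. The interaction alternatives were chosen after seeing the data. Dim members near the floor are those for which these arrays limit what can be said.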
